A study of Mus musculus with 2 samples.

Results

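The receptors and feedback genes of fibroblast growth factor (FGF) signalling were followed by name in 2 single-cell libraries. They are the receptors Fgfr1, Fgfr2 and Fgfr4, the Sprouty genes Spry1, Spry2 and Spry4, the phosphatase gene Dusp6 and the ETS factor genes Etv4 and Etv5. These 9 genes were taken by symbol from the 25906 genes in the files, and all 9 were present in both libraries. The rule used no measured value, but the genes were chosen with earlier results of these data known.

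The series holds 1 clone of MyoD-KO and 1 clone of MyoD-WT induced myogenic progenitor cells (iMPCs), which are proliferating muscle precursors made from mouse embryonic fibroblasts. Both clones were made by overexpressing the muscle transcription factor Myf6 and picked as colonies that no longer needed it. Both grew to passage 4 in medium with 10 ng/mL of bFGF (basic FGF), 5 µM of forskolin, which raises cyclic AMP, 5 µM of RepSox, a TGF-beta receptor inhibitor, and 3 µM of CHIR99021, a GSK3 inhibitor, and both carry the strain label Myod1tm1Jae. The study asked what Myf6 does in turning fibroblasts into myogenic cells, and the pair of clones compares cells labelled without and with MyoD. Each genotype is 1 clone and 1 library, so no test between genotypes was possible, genotype and clone cannot be told apart, and all intervals are 95% intervals for counting error only.

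FGFs bind receptor tyrosine kinases together with heparan sulfate and switch on the RAS and ERK kinase cascade. ERK output turns on genes that act back on it: Sprouty proteins restrain the step from receptor to RAS, the Dusp6 product dephosphorylates ERK, and Etv4 and Etv5 are transcription factors widely used as readouts of FGF activity. In mouse muscle, FGF signalling is known for keeping satellite cells and myoblasts dividing and for holding back their fusion, and Fgfr1 and Fgfr4 are the receptors best known there.

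The promoters of 3 of the genes are shown because Fgfr4 and Dusp6 were lower in muscle-rich than in Pax7+ cells of both libraries, while Spry1 did not pass the same limit in either. RefSeq promoter sequences of build GRCm38.p6, another build than the one named in the submitters' notes, held 6 of the 9 genes. Each runs 5′ to 3′ on the plus strand from 250 bases before to 50 bases after the annotated start, at chr13:55152568-55152867 for Fgfr4, chr10:99262981-99263280 for Dusp6 and chr3:37639697-37639996 for Spry1. Capitals mark matches to the E-box letters CANNTG, the family of sequences that MyoD and myogenin bind.
Fgfr4: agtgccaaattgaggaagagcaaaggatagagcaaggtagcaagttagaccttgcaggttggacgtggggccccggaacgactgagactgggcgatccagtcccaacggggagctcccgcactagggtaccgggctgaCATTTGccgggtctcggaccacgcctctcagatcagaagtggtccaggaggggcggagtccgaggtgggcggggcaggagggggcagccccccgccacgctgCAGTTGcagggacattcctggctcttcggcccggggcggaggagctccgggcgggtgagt
Dusp6: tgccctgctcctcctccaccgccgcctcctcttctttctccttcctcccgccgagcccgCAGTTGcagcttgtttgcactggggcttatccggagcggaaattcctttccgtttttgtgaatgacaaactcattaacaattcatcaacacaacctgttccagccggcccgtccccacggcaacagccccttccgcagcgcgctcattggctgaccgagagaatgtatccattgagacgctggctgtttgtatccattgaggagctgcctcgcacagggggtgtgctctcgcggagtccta
Spry1: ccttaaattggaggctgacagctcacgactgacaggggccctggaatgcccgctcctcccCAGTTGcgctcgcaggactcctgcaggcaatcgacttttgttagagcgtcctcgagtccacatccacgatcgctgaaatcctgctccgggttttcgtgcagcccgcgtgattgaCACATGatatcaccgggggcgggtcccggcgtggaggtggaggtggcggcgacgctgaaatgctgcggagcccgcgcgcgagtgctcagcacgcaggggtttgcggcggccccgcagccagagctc
Fgfr4 held 2 E-box matches, which begin at -112 and -10 from the start, Dusp6 held 1 at -191, and Spry1 held 2 at -190 and -76. The ETS core GGAA, read on both strands, occurred 3 times in Fgfr4, 6 times in Dusp6 and 1 time in Spry1, and in none of them did it overlap an E-box match. The longer ETS letters CCGGAAGT were in none of the 3. Of 32851 promoters of the same length, 72.3% held an E-box match, 96.0% the ETS core and 3.89% the longer ETS letters, so the short matches are frequent in any promoter.

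Levels are given as CPM, the UMIs (counted transcript tags) of a gene per 1000000 UMIs of a group of cells. A 3′ tag method counts a captured transcript once whatever its length, so CPM of different genes are set side by side without a length correction. The KO library gave 7670 barcodes and 282739488 UMIs and the WT library 8191 barcodes and 285232252 UMIs, and 5638 KO and 7316 WT cells were kept, with medians of 40426.5 and 35515.5 UMIs. The libraries shared 14 barcodes, 9 of them among the kept cells. Cells were called muscle-rich when sarcomere genes took at least 2% of their UMIs, then Myog+ at 100 CPM of Myog, then Pax7+ at 50 CPM of Pax7, and each was split by an S and G2M phase score into cycling and non-cycling. Near the cycling limit, within 1.5 times of it, lay 1020 KO cells (18.1%) and 607 WT cells (8.30%).

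The Pax7+ group held 2237 cycling and 654 non-cycling cells in KO, and 3917 cycling and 237 non-cycling cells in WT. The Myog+ group held 533 and 518 such cells in KO, and 939 and 383 in WT. Muscle-rich cells numbered 42 cycling and 1043 non-cycling in KO, and 158 and 1009 in WT. Cycling cells were thus 77.4% of Pax7+ cells in KO and 94.3% in WT. The 42 KO muscle-rich cycling cells are under the minimum of 50, and their values are given without comparison. Leaving out the 6% highest scores for doublets, barcodes with more than 1 cell, took this state from 158 to 55 cells in WT. In KO it went from 42 to 14. Its median in WT was 58343.5 UMIs, against 36841 in muscle-rich non-cycling cells. The state may therefore hold doublets, which was not tested, and its values in the levels, orders, ranges and correlations below carry that limit.

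Markers of muscle progenitors, myocytes and muscle were present in both libraries. The 8 progenitor markers summed to between 378 and 873 CPM over the KO states and between 217 and 431 CPM over the WT states, the 6 myocyte markers to between 2766 and 9478 in KO and between 499 and 6517 in WT, and the 6 muscle markers to between 444 and 43331 in KO and between 271 and 27851 in WT. The 8 fibroblast markers summed to between 82.4 and 733 CPM in KO and between 4.36 and 212 CPM in WT. In Pax7+ cycling cells of both libraries nearly all of this sum was Col3a1, and in those of WT 1 of the 8 reached 1 CPM. The sum is therefore not a measure of fibroblast content. The 4 smooth muscle markers ran the other way, at 121 to 834 CPM in KO and 378 to 2371 CPM in WT. Endothelial, immune, Schwann and adipocyte markers, 3 genes each, stayed at or under 5.09 CPM in sum in every state, with Kdr, Ptprc and Sox10 at 0 UMIs in KO and at 1, 3 and 3 UMIs in WT.

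Myod1 (ENSMUSG00000009471), the gene that the labels give as knocked out, had 63.3 CPM in KO, against 162 CPM in WT over all kept cells, a ratio of 0.390 (0.383–0.398). In Pax7+ non-cycling cells it had 60.0 CPM in KO, against 62.9 CPM in WT, a ratio of 0.954 with an interval of 0.849–1.08 that holds 1. The extent of the deletion is not given in the sources used here, and 3′ tags can come from outside it, so these values do not check the genotype label.

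Among the receptors, Fgfr4 (ENSMUSG00000005320), the FGF receptor typical of muscle progenitors, had the highest CPM in all cells of both libraries. In KO it had 219 CPM in Pax7+ cycling, 205 in Pax7+ non-cycling, 217 in Myog+ cycling, 152 in Myog+ non-cycling, 109 in muscle-rich cycling and 23.4 CPM in muscle-rich non-cycling cells. In WT it had 146 CPM in Pax7+ cycling, 139 in Pax7+ non-cycling, 161 in Myog+ cycling, 115 in Myog+ non-cycling, 77.4 in muscle-rich cycling and 23.5 CPM in muscle-rich non-cycling cells. Fgfr4 was therefore high in every state but the muscle-rich ones, and the order of neighbouring states was not separated by counting error between Pax7+ cycling and Myog+ cycling cells in KO or between Pax7+ cycling and Pax7+ non-cycling cells in WT. The KO level was above the WT level in the 4 Pax7+ and Myog+ states, by 1.32-fold to 1.49-fold, which is under the 2-fold used as a call, and the muscle-rich non-cycling levels gave a ratio of 0.994 (0.909–1.09).

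Fgfr1 (ENSMUSG00000031565), the receptor that bFGF is best known to act through in satellite cells, differed more between the libraries. In KO it had 123 CPM in Pax7+ cycling, 187 in Pax7+ non-cycling, 116 in Myog+ cycling, 134 in Myog+ non-cycling, 68.2 in muscle-rich cycling and 48.3 CPM in muscle-rich non-cycling cells. In WT it had 54.8 CPM in Pax7+ cycling, 134 in Pax7+ non-cycling, 69.7 in Myog+ cycling, 85.1 in Myog+ non-cycling, 44.7 in muscle-rich cycling and 17.9 CPM in muscle-rich non-cycling cells. In both libraries Pax7+ non-cycling cells were highest and muscle-rich non-cycling cells lowest, and no 2 neighbours in the order had a ratio whose interval held 1.

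Fgfr2 (ENSMUSG00000030849), a receptor best known from epithelia and limb buds, was the flattest of the receptors. In KO its CPM lay between 17.0 in muscle-rich non-cycling and 51.6 in Pax7+ non-cycling cells, and in WT between 28.0 in muscle-rich non-cycling and 38.1 in Pax7+ cycling cells. The WT order from Myog+ cycling down to muscle-rich non-cycling cells was not separated by counting error between any 2 neighbours. In the GENCODE M21 annotation the Fgfr2 gene model spans other genes on its strand, Ate1 among them, so its counts are less certain than those of the other 8 genes, for which no overlap on the same strand was found.

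Spry1 (ENSMUSG00000037211), a Sprouty gene known in mouse for the return of satellite cells to rest, was lower in KO in every state compared. The log2 ratio was only -0.12 in Pax7+ cycling cells. In Pax7+ non-cycling cells it ran from -0.81 to 0.08 over the alternative settings described at the end, so its sign there was not stable. In KO it had 17.3 CPM in Pax7+ cycling, 26.6 in Pax7+ non-cycling, 12.3 in Myog+ cycling, 12.8 in Myog+ non-cycling, 19.8 in muscle-rich cycling and 22.4 CPM in muscle-rich non-cycling cells. In WT it had 18.8 CPM in Pax7+ cycling, 34.7 in Pax7+ non-cycling, 23.1 in Myog+ cycling, 29.9 in Myog+ non-cycling, 26.8 in muscle-rich cycling and 31.7 CPM in muscle-rich non-cycling cells. In WT the Pax7+ non-cycling, muscle-rich non-cycling and Myog+ non-cycling levels were not separated from their neighbours in the order. Spry2 (ENSMUSG00000022114), the Sprouty gene with the highest level over all cells of both libraries, lay between 17.7 CPM in muscle-rich non-cycling and 55.8 CPM in Pax7+ non-cycling cells of KO, and between 19.5 CPM in muscle-rich non-cycling and 43.1 CPM in Pax7+ cycling cells of WT.

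Spry4 (ENSMUSG00000024427), another Sprouty gene, was the member with the widest range over the 11 states with at least 50 cells, 14.3-fold from its lowest to its highest level. In KO it had 3.90 CPM in Pax7+ cycling, 5.94 in Pax7+ non-cycling, 7.75 in Myog+ cycling, 10.0 in Myog+ non-cycling, 5.92 in muscle-rich cycling and 4.84 CPM in muscle-rich non-cycling cells. In WT it had 11.0 CPM in Pax7+ cycling, 7.22 in Pax7+ non-cycling, 39.3 in Myog+ cycling, 55.6 in Myog+ non-cycling, 19.0 in muscle-rich cycling and 23.5 CPM in muscle-rich non-cycling cells. Both libraries thus had their highest Spry4 in Myog+ non-cycling cells, and the KO values stayed within a 2.57-fold range against a 7.71-fold range in WT.

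Dusp6 (ENSMUSG00000019960), whose product takes the activating phosphates off ERK, was highest in Pax7+ non-cycling cells of both libraries. In KO it had 20.0 CPM in Pax7+ cycling, 39.8 in Pax7+ non-cycling, 16.2 in Myog+ cycling, 22.1 in Myog+ non-cycling, 10.4 in muscle-rich cycling and 6.02 CPM in muscle-rich non-cycling cells. In WT it had 6.80 CPM in Pax7+ cycling, 22.7 in Pax7+ non-cycling, 5.40 in Myog+ cycling, 8.95 in Myog+ non-cycling, 6.05 in muscle-rich cycling and 4.21 CPM in muscle-rich non-cycling cells. In each of the Pax7+ and Myog+ groups the cycling cells had less Dusp6 than the non-cycling cells of the same library.

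Of the ETS factors, Etv4 (ENSMUSG00000017724) was higher in the Pax7+ states than in the Myog+ and muscle-rich ones, and Etv5 (ENSMUSG00000013089) was not. In KO Etv4 had 14.6 CPM in Pax7+ cycling, 15.3 in Pax7+ non-cycling, 4.30 in Myog+ cycling, 1.94 in Myog+ non-cycling, 4.53 in muscle-rich cycling and 1.56 CPM in muscle-rich non-cycling cells. In WT Etv4 had 12.9 CPM in Pax7+ cycling, 12.7 in Pax7+ non-cycling, 5.75 in Myog+ cycling, 2.34 in Myog+ non-cycling, 7.69 in muscle-rich cycling and 1.37 CPM in muscle-rich non-cycling cells. Within each library the cycling and non-cycling Pax7+ cells were not separated by counting error. Etv5 lay between 7.60 CPM in Myog+ non-cycling and 19.6 CPM in muscle-rich non-cycling cells of KO, and between 7.62 CPM in Myog+ cycling and 12.8 CPM in muscle-rich cycling cells of WT.

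**Figure D1:**
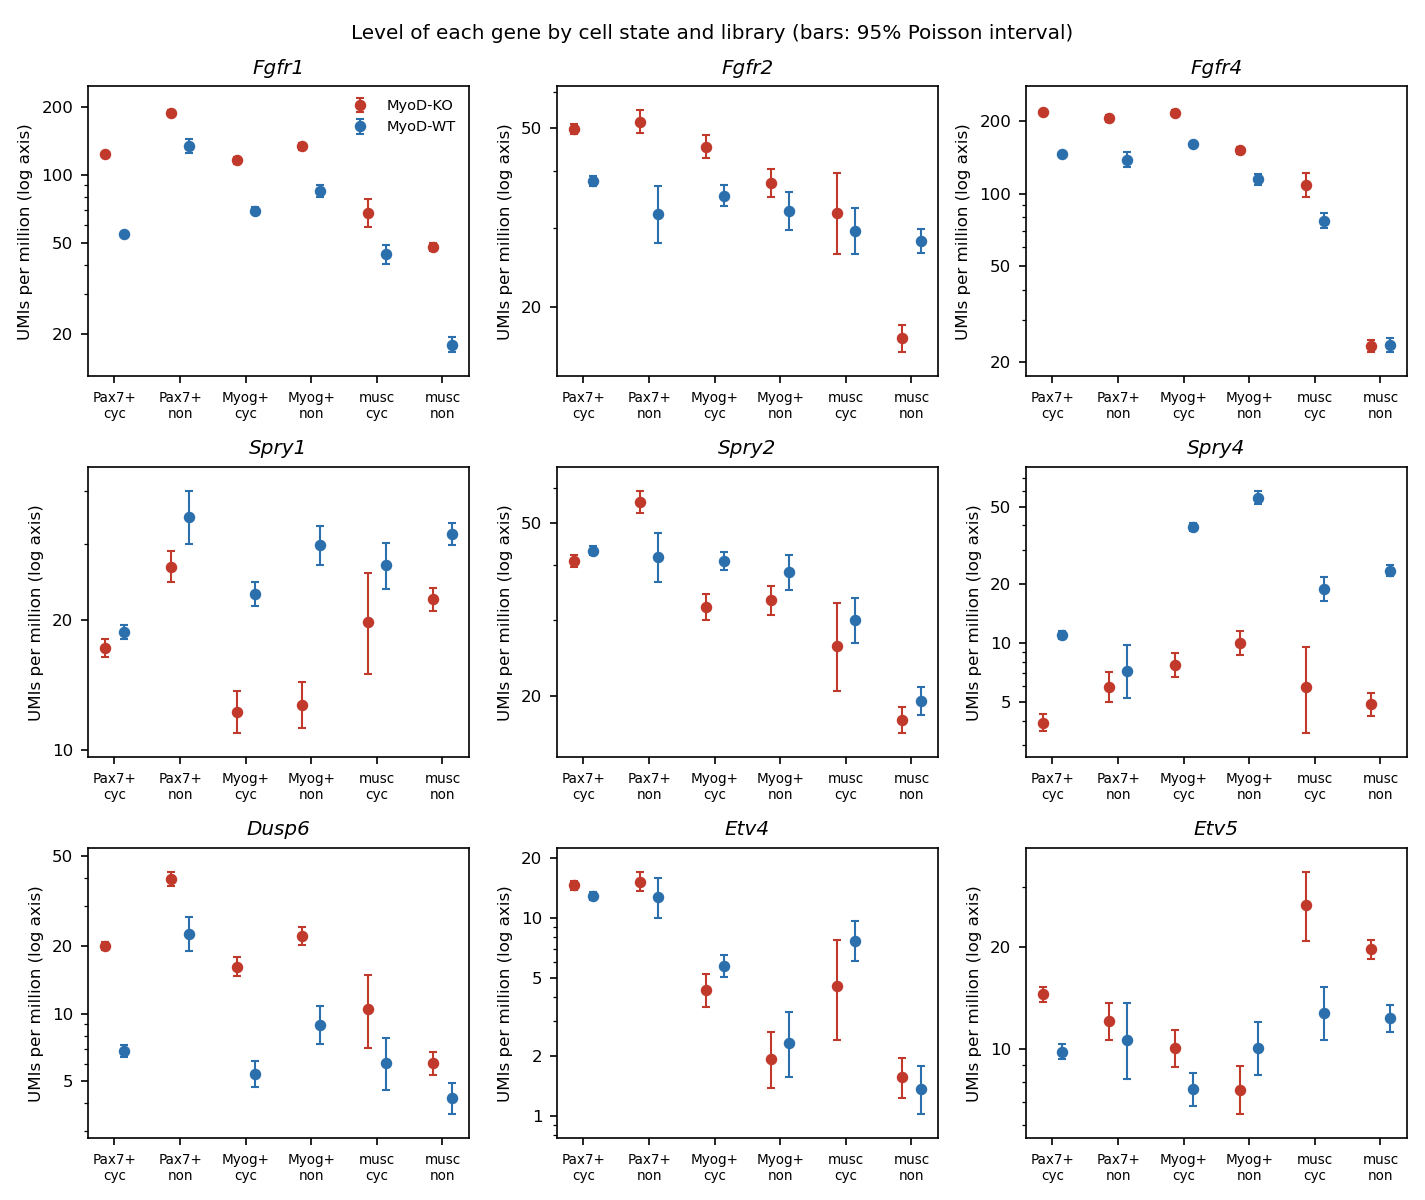
Level of each of the 9 genes in CPM (log axis) in 6 cell states, red for MyoD-KO and blue for MyoD-WT, with 95% Poisson intervals as bars; cyc is cycling, non is non-cycling and musc is muscle-rich. Spry4 reaches 55.6 CPM in WT Myog+ non-cycling cells and 10.0 CPM in the KO ones, and muscle-rich non-cycling cells have 23.4 CPM of Fgfr4 in KO, against 23.5 CPM in WT.

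Between the genotypes, over all kept cells, Fgfr1 and Dusp6 were higher and Spry4 lower in KO by the size rule, which asks for a 2-fold difference and 10 CPM or more in the higher library and has no replicate check. Fgfr1 had 122 CPM in KO, against 55.1 CPM in WT, a ratio of 2.22 (2.18–2.26). Dusp6 had 23.3 CPM in KO, against 6.89 CPM in WT, a ratio of 3.38 (3.21–3.56). Spry4 had 5.92 CPM in KO, against 19.1 CPM in WT, a ratio of 0.310 (0.292–0.329), which is 3.23-fold lower. Spry4 and Dusp6, both known as ERK feedback genes, thus had ratios on opposite sides of 1. Dusp6 reached 10 CPM in KO alone and could pass only as higher, and Spry4 in WT alone and only as lower. That these calls are opposed is therefore not a separate result. Spry1 and Spry2 did not pass.

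These 3 of 9 genes stand beside 16.7% of all 8793 genes with at least 10 CPM in a library that passed the same rule, 13.3% higher and 3.4% lower in KO. The median log2 ratio was 0.22 over the 9 genes and 0.08 over all genes tested. The other 6 genes lay between 0.797 for Spry1 and 1.43 for Etv5. Fgfr1 was at a log2 ratio of 1.15 with total-UMI scaling and 0.97 with TMM scaling, so its call over all cells rests on the scaling.

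The KO library also held cells with fibroblast markers. In 233 KO cells that were not muscle-rich and had at least 100 CPM of Dcn, Lum, Twist2 and Crabp1 together, a cut chosen after the data were seen, Fgfr1 had 288 CPM, Dusp6 118, Spry2 58.3, Etv4 30.3, Spry4 21.1, Fgfr4 12.1 and Spry1 7.68 CPM, and WT held 11 such cells. With all such cells left out, the log2 ratio of KO over WT was 1.06 for Fgfr1, 1.47 for Dusp6 and -1.87 for Spry4, and all 3 still passed. Leaving out every cell with 100 CPM of the longer fibroblast list, which holds Col3a1 and takes most KO Pax7+ cells, gave 0.41 for Fgfr1, 0.63 for Dusp6 and -1.81 for Spry4. On the same cells Fgfr4, Fgfr2 and Etv4, all above 0 over all kept cells, were at -1.30, -0.59 and -2.30, and Fgfr4 then passed as lower in KO. This cut kept 1387 KO cells, 954 of them muscle-rich non-cycling and 50 Pax7+ cycling. In WT it kept 5659 cells, 1004 of them muscle-rich non-cycling and 2678 Pax7+ cycling. The mix of states thus differed between the libraries, and its part in these ratios was not tested. Within Pax7+ cycling, Myog+ cycling and Myog+ non-cycling cells the Dusp6 call was lost under no setting. Col3a1 itself had 491 CPM in KO Pax7+ cycling cells, against 85.8 CPM in those of WT, and its part in the differences was not tested.

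In Pax7+ cycling cells the same 3 of 9 genes passed, beside 17.4% of 8677 genes, 13.6% higher and 3.86% lower in KO. The ratio of KO over WT was 2.25 (2.19–2.31) for Fgfr1, 2.94 (2.73–3.17) for Dusp6 and 0.354 (0.316–0.395) for Spry4. With TMM scaling the log2 ratio of Fgfr1 was 0.96 in place of 1.17 and it no longer passed. Without cells that hold both Pax7 and Myog UMIs, Spry4 stayed more than 2-fold lower at -1.26 in place of -1.50 but no longer passed, since that rule also asks for 10 CPM. In Pax7+ non-cycling cells 0 of the 8 genes tested passed, beside 15.5% of 8566 genes, 12.4% higher and 3.15% lower, and 2 passed at 1.5-fold. There Dusp6 had 39.8 CPM in KO, against 22.7 CPM in WT, a ratio of 1.75 (1.46–2.12), and Spry4, under 10 CPM in both and so not tested, had a ratio of 0.823 (0.576–1.20). The WT value rests on 237 cells and 42 Spry4 UMIs.

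In Myog+ cycling cells 2 of 8 genes passed, beside 15.1% of 8373 genes, 11.7% higher and 3.43% lower, and both were feedback genes. Dusp6 had 16.2 CPM in KO, against 5.40 CPM in WT, a ratio of 2.99 (2.53–3.54), and Spry4 had 7.75 CPM in KO, against 39.3 CPM in WT, a ratio of 0.197 (0.169–0.229). In Myog+ non-cycling cells 3 of 8 passed, beside 16.7% of 8050 genes, 12.3% higher and 4.34% lower. Dusp6 was higher in KO at a ratio of 2.47 (2.01–3.07), Spry4 was lower at 0.180 (0.153–0.211), which is 5.55-fold, and Spry1 was lower at 0.427 (0.362–0.501). The 3 receptors did not pass in either Myog+ state, with Fgfr1 at 1.67 (1.58–1.76) in cycling and 1.57 (1.46–1.69) in non-cycling cells.

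In muscle-rich non-cycling cells 2 of 7 genes passed, beside 17.8% of 7615 genes, 12.1% higher and 5.78% lower. Fgfr1 had 48.3 CPM in KO, against 17.9 CPM in WT, a ratio of 2.70 (2.48–2.94), and Spry4 had 4.84 CPM in KO, against 23.5 CPM in WT, a ratio of 0.206 (0.177–0.239). Fgfr2 went the other way from Fgfr1, at 17.0 CPM in KO, against 28.0 CPM in WT, without passing. Spry4 passed in 4 of the 5 states compared, with all 4 ratios below 1, and Dusp6 in 3 of 5, with all 3 ratios above 1. In those states KO Spry4 was under 10 CPM, except at 10.0 CPM in Myog+ non-cycling cells, and WT Dusp6 was under 10 CPM. The rule thus all but limited a pass to these directions, so their agreement over states is not a separate result.

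The median log2 ratio of the genes tested in each state, beside that of all genes tested, was 0.38 and 0.09 in Pax7+ cycling, 0.45 and 0.18 in Pax7+ non-cycling, 0.38 and 0.12 in Myog+ cycling, -0.00 and 0.18 in Myog+ non-cycling, and -0.14 and 0.10 in muscle-rich non-cycling cells. Fgfr1 and Dusp6 had ratios above 1, and Spry1 and Spry4 ratios below 1, in all 5 states by total UMIs and by TMM. Fgfr2 and Fgfr4 lay above 1 in the Pax7+ and Myog+ states and below it in muscle-rich non-cycling cells, at log2 ratios of -0.72 and -0.01. Spry2 lay below 1 except in Pax7+ non-cycling cells, with 55.8 CPM in KO, against 41.8 CPM in WT.

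**Figure D2:**
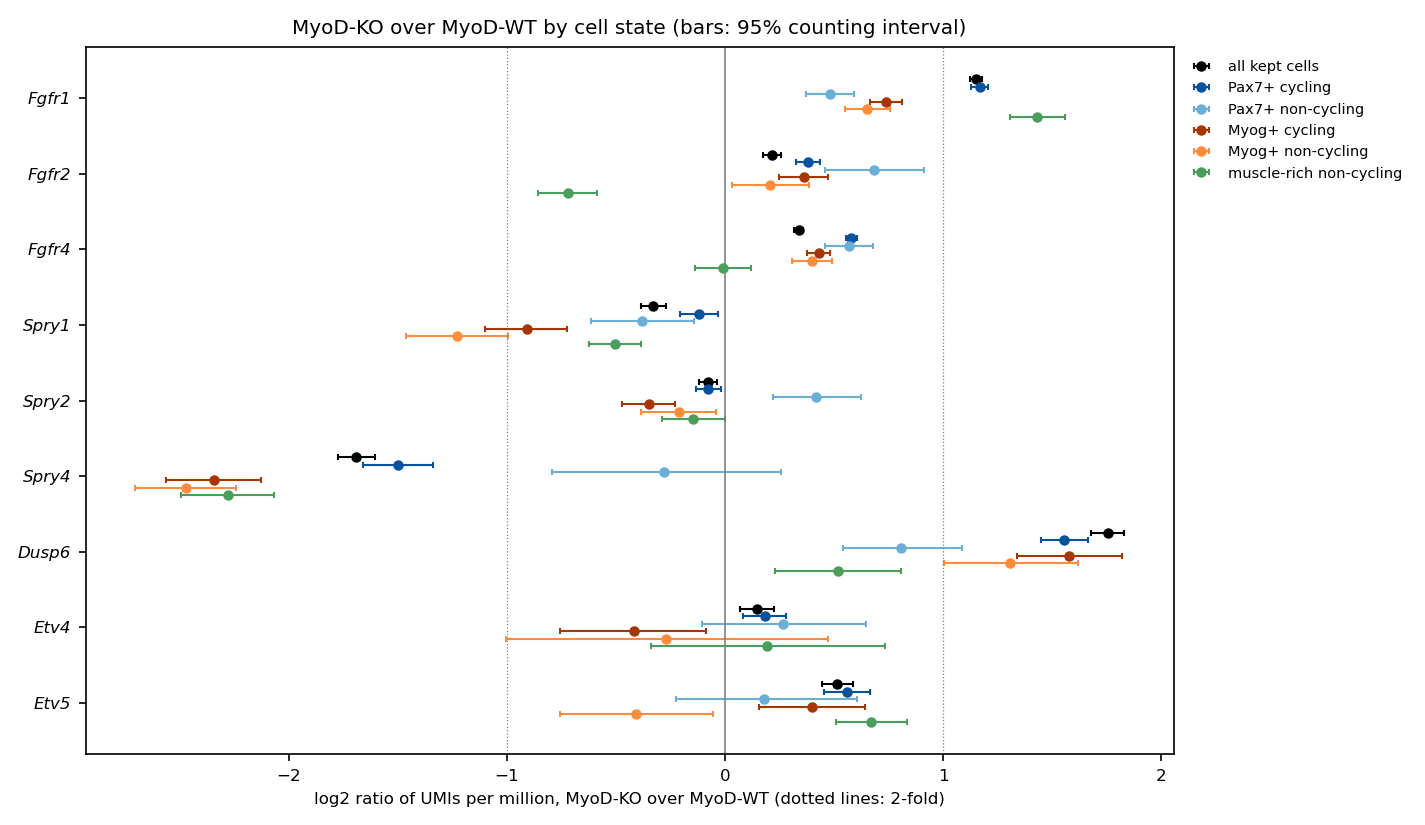
Log2 ratio of CPM, MyoD-KO over MyoD-WT, for each gene over all kept cells and in 5 cell states, with 95% counting intervals and dotted lines at 2-fold. Spry4 points lie left of the 2-fold line except in Pax7+ non-cycling cells, and Dusp6 points lie right of it over all cells and in 3 states.

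Within each library, Pax7+ cycling cells were set against Pax7+ non-cycling cells. In KO 0 of 8 genes tested passed the 2-fold rule, beside 6.12% of 8703 genes, 4.67% higher and 1.46% lower, and 3 passed at 1.5-fold. Dusp6 came closest at 20.0 CPM in cycling and 39.8 CPM in non-cycling cells, a ratio of 0.503 (0.464–0.546). In WT 2 of 9 passed, beside 12.4% of 8195 genes, 7.24% higher and 5.2% lower. Fgfr1 was lower in cycling cells, at 54.8 against 134 CPM, a ratio of 0.409 (0.380–0.440), and Dusp6 was lower at 6.80 against 22.7 CPM, a ratio of 0.300 (0.250–0.362). Dusp6 reached 10 CPM in the non-cycling cells alone and could pass only as lower. Fgfr4 and Etv4 hardly differed, with ratios of 1.06 (1.03–1.10) for Fgfr4 and 0.957 (0.848–1.08) for Etv4 in KO, and 1.06 (0.984–1.13) for Fgfr4 and 1.01 (0.804–1.30) for Etv4 in WT. The median over the genes tested was -0.26 in KO and 0.02 in WT on the log2 scale, beside 0.03 and 0.13 over all genes.

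Depth and the sum of the 8 fibroblast markers moved with this comparison. In KO the median was 41867 UMIs in cycling and 31394.5 UMIs in non-cycling Pax7+ cells, and the fibroblast markers summed to 502 CPM in cycling and 733 CPM in non-cycling cells. In WT the median was 36629 UMIs in cycling and 24755 UMIs in non-cycling cells, and the markers summed to 86.4 CPM in cycling and 212 CPM in non-cycling cells. Nearly all of the sum in the cycling cells was Col3a1. At least 100 CPM of Dcn, Lum, Twist2 and Crabp1 together was held by 5 of 2237 cycling and 30 of 654 non-cycling KO cells. In WT it was held by 1 of 3917 cycling and 2 of 237 non-cycling cells. With each cell thinned to 5000 UMIs, the log2 ratios of cycling over non-cycling WT cells were -1.36 for Fgfr1 and -1.60 for Dusp6. Without the cells that hold the longer fibroblast list, which leaves 112 WT non-cycling Pax7+ cells, Fgfr1 was at -0.88 and no longer passed, and Dusp6 was at -1.27 and still did. With cycling read from Mki67 and Top2a, Fgfr1 was at -0.99, also under the limit, and Dusp6 at -1.43. In KO only 8 non-cycling Pax7+ cells lack the list, so it has no such value.

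Myog+ non-cycling cells, which have turned on the differentiation factor myogenin, were set against Pax7+ non-cycling cells of the same library. In KO 2 of 9 genes passed, beside 18.3% of 8619 genes, 6.3% higher and 12.0% lower. Etv4 was lower at 1.94 against 15.3 CPM, a ratio of 0.127 (0.0885–0.177), and Spry1 was lower at 12.8 against 26.6 CPM, a ratio of 0.479 (0.411–0.556). In WT 3 of 9 passed, beside 21.5% of 8063 genes, 7.94% higher and 13.5% lower. Spry4 was higher at 55.6 against 7.22 CPM, a ratio of 7.71 (5.64–10.8), Dusp6 was lower at 0.394 (0.304–0.512) and Etv4 was lower at 0.184 (0.115–0.286). Spry4 in KO had 10.0 against 5.94 CPM, a ratio of 1.69 (1.34–2.12), and did not pass. The groups overlap: 1480 KO and 1670 WT Pax7+ cells, cycling or not, also held Myog UMIs. Without cells that hold both Pax7 and Myog UMIs, Spry4 in KO passed as higher. Fgfr4, at a log2 ratio of -1.13, Spry2 and Etv5 then also passed in KO as lower. No call in WT changed under that setting.

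With the main gates and total-UMI scaling, Etv4 was the gene that passed in both libraries in this step, and the receptors passed in neither. Etv4 in both libraries and Dusp6 in WT reached 10 CPM in the Pax7+ cells alone and could pass only as lower. Spry4 in WT reached it in the Myog+ cells alone and could pass only as higher. Agreement in direction between libraries is therefore not a separate result. The sum of the 8 fibroblast markers, Col3a1 among them, moved with the step. It was 199 CPM in Myog+ and 733 CPM in Pax7+ non-cycling cells of KO, and 29.3 CPM in Myog+ and 212 CPM in Pax7+ non-cycling cells of WT. Without the cells that hold the longer list, WT Etv4 was at a log2 ratio of -1.93 and WT Dusp6 at -0.76, neither of which passed, Etv4 because it was then under 10 CPM in both groups, and WT Spry4 at 3.64 did. The WT Dusp6 call was also lost with cycling read from Mki67 and Top2a, at -0.99, and with the cycling limit raised 1.5 times. Fgfr4 was at 0.738 (0.704–0.773) in KO and 0.830 (0.761–0.906) in WT. The median log2 ratio was -0.67 in KO and -0.22 in WT over the 9 genes, beside -0.07 in each library over all genes tested. The Spry1 call in KO was lost with TMM scaling, where its log2 ratio was -0.91, and under 3 other settings.

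Within the Myog+ cells the same genes also separated those that still held Pax7 tags. Among KO Myog+ cells, 364 with at least 50 CPM of Pax7 had 274 CPM of Fgfr4, 5.78 of Etv4 and 4.41 of Spry4, and 456 without a Pax7 UMI had 107 CPM of Fgfr4, 1.04 of Etv4 and 13.1 of Spry4. Among WT Myog+ cells, 562 with Pax7 had 173 CPM of Fgfr4, 6.13 of Etv4 and 31.5 of Spry4, and 475 without had 108 CPM of Fgfr4, 2.94 of Etv4 and 60.8 of Spry4. Fgfr4 and Etv4 were thus lower, and Spry4 higher, in the cells without Pax7 tags of both libraries. The split pools cycling and non-cycling cells. Of the cells without a Pax7 UMI, 307 in KO and 252 in WT were non-cycling. All Myog+ cells held 533 cycling and 518 non-cycling cells in KO, and 939 and 383 in WT. The 3 genes differed in the same directions between non-cycling and cycling Myog+ cells, so this split is not separate from cycling.

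Muscle-rich non-cycling cells showed the broadest difference from Pax7+ non-cycling cells. In KO 6 of 8 genes passed, all lower, beside 42.7% of 8887 genes in either direction and 31.0% lower, with 11.7% higher. The ratios were 0.258 (0.245–0.272) for Fgfr1, 0.330 (0.300–0.361) for Fgfr2, 0.114 (0.106–0.122) for Fgfr4, 0.316 (0.289–0.346) for Spry2, 0.151 (0.132–0.173) for Dusp6 and 0.102 (0.0782–0.132) for Etv4. All 3 receptors were thus lower in the KO muscle-rich cells, Fgfr4 by 8.79-fold. Dusp6 and Etv4 reached 10 CPM in the Pax7+ cells alone and could pass only as lower.

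In WT 6 of 9 passed, 5 lower and 1 higher, beside 39.5% of 8291 genes in either direction, 13.3% higher and 26.2% lower. The lower ones were Fgfr1 at 0.134 (0.120–0.148), Fgfr4 at 0.170 (0.154–0.187), Spry2 at 0.468 (0.404–0.543), Dusp6 at 0.185 (0.146–0.235) and Etv4 at 0.107 (0.0739–0.155), and the higher one was Spry4 at 3.25 (2.39–4.55). Here too Dusp6 and Etv4 reached 10 CPM in the Pax7+ cells alone and could pass only as lower. Spry4 reached it in the muscle-rich cells alone and could pass only as higher. Fgfr2, lower in KO, was at 0.872 (0.746–1.02) in WT. The 8 fibroblast markers, Col3a1 among them, summed to 82.4 CPM in muscle-rich and 733 CPM in Pax7+ non-cycling cells of KO, and to 4.36 CPM in muscle-rich and 212 CPM in Pax7+ non-cycling cells of WT. Without the cells that hold the longer list, the WT log2 ratios were -2.37 for Fgfr1, -2.64 for Fgfr4, -1.71 for Dusp6 and 2.35 for Spry4, which still passed, and -2.68 for Etv4 and -0.91 for Spry2, which did not. Whether the libraries differ in this step beyond chance could not be tested with 1 library each.

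Sarcomere transcripts take up a large part of the UMIs of muscle-rich cells, and the median log2 ratio over all genes tested was -0.48 in KO and -0.40 in WT, beside -1.81 in KO and -1.10 in WT over the genes followed. TMM scaling moved the median of all genes to 0.09 in KO and 0.15 in WT. On that scale Fgfr4 was still lower at -2.56 in KO and -2.01 in WT, Etv4 at -2.72 in KO and -2.67 in WT, Dusp6 at -2.15 in KO and -1.89 in WT, and Fgfr1 at -1.38 in KO and -2.36 in WT. The Spry2 call in WT was lost at -0.55, Etv5 in KO passed at 1.27, and the values of Spry1 in both libraries, Spry4 in KO and Fgfr2 in WT, none of them calls, changed sign.

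**Figure D3:**
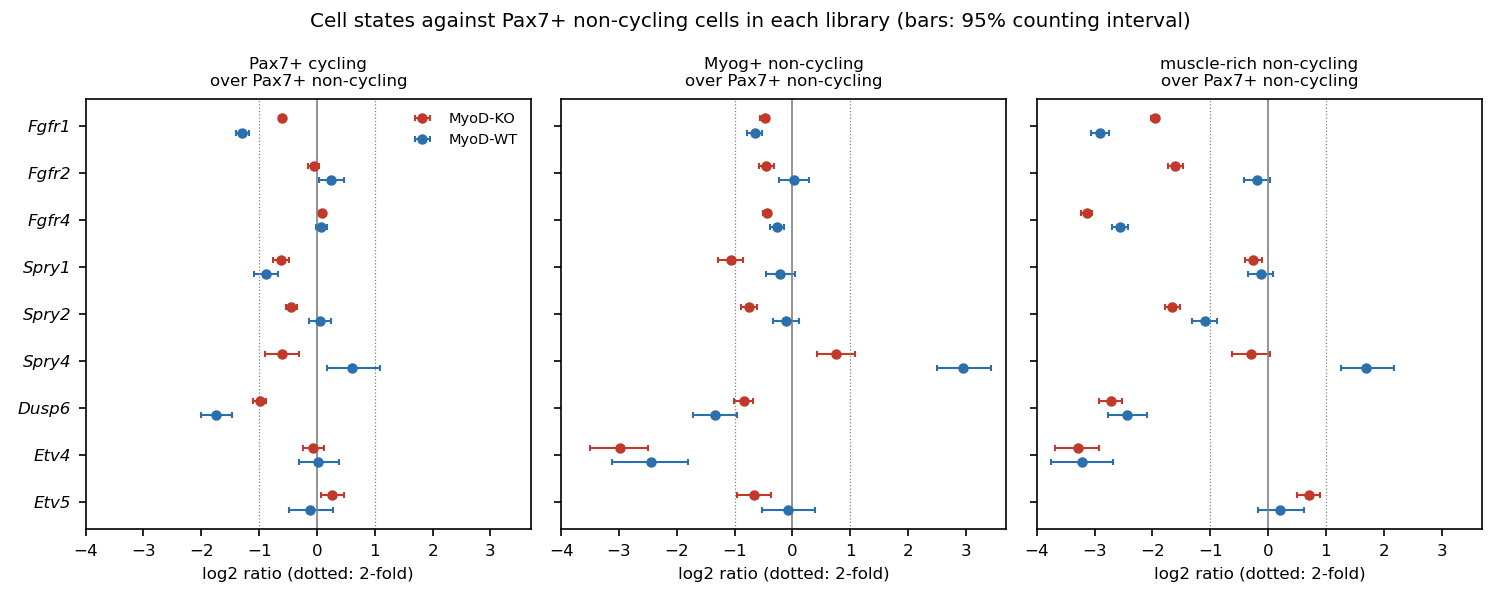
Log2 ratio of 3 cell states over Pax7+ non-cycling cells within each library, red for MyoD-KO and blue for MyoD-WT, with 95% counting intervals and dotted lines at 2-fold. Etv4 lies left of the 2-fold line in both libraries in the Myog+ and muscle-rich panels, and Spry4 lies right of it in WT in the same panels, at 2.95 and 1.70.

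To compare shares of cells with a UMI, every cell was drawn down at random to 5000 UMIs, with 5469 of 5638 KO and 7236 of 7316 WT cells deep enough. As gauges of free RNA, Ckm, a muscle gene, was seen in 6.76% of KO and 1.28% of WT Pax7+ cycling cells, and Pax7 in 2.91% of KO and 1.43% of WT muscle-rich non-cycling cells. Fgfr4 was seen in 61.7% of KO and 49.5% of WT Pax7+ cycling cells, and in 8.51% of KO and 9.70% of WT muscle-rich non-cycling cells, all above the gauges. Fgfr1 was seen in 43.6% of KO and 23.7% of WT Pax7+ cycling cells.

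The feedback genes were sparser. Spry4 was seen in 5.59% of KO and 23.0% of WT Myog+ non-cycling cells, and in 1.70% of KO and 5.04% of WT Pax7+ cycling cells. Dusp6 was seen in 16.0% of KO and 9.36% of WT Pax7+ non-cycling cells. Both KO shares of Spry4 were under the Ckm gauge of that library, and the shares of Etv4 in muscle-rich non-cycling cells, 0.647% in KO and 0.715% in WT, were under the Pax7 gauges, so no expression or difference is read from these 4 shares. The gauge is strict, since KO cells held 9.03 UMIs of Ckm and 0.253 UMIs of Spry4 on average. The WT shares of Spry4 were above the gauge.

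The levels of some of the 9 genes ran in parallel over the 11 state values with at least 50 cells, which share 2 libraries and their depths. On log2(CPM + 1), the Pearson correlation was 0.90 for Fgfr1 with Dusp6, 0.89 for Fgfr4 with Spry2 and 0.88 for Fgfr2 with Fgfr4. The Sprouty genes did not run together, with -0.03 for Spry1 with Spry2, -0.03 for Spry2 with Spry4 and 0.37 for Spry1 with Spry4, and Spry4 with Dusp6 gave -0.58. These are descriptions over 11 values and carry no test.

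Among 9475 genes, the 3 closest to each were named by the same correlation. For Spry4 they were Myod1 (0.970), Fstl4 (0.969) and Lrba (0.953), so the gene whose pattern was most like that of Spry4 was the targeted gene itself. Within the 6 WT values Myod1 was in place 52 of 9474 with 0.949, and within the 5 KO values in place 242 with 0.853. Dusp6 was closest to Copa (0.984), Rcn3 (0.974) and Mknk1 (0.971), and its correlation with Myod1 was -0.71.

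For the receptors the closest genes were Arl3 (0.975), Pgam1 (0.967) and Aldh2 (0.960) for Fgfr1, Lpar4 (0.989), Upf3a (0.981) and Faim (0.966) for Fgfr2, and Dock1 (0.995), Lrrc17 (0.992) and Pan3 (0.990) for Fgfr4. For Spry1 they were Zxdc (0.944), Gramd3 (0.932) and Rab22a (0.922), and for Spry2 Ptpn9 (0.975), Stk24 (0.974) and Emilin1 (0.971). For Etv4 they were Bcl2 (0.983), Hunk (0.978) and Islr (0.978), and for Etv5 Tmem134 (0.886), Kalrn (0.884) and Plk2 (0.883). Fgfr4 had the closest companion of all and Etv5 the most distant.

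Around the 9 genes, the rest of the pathway was read from 4 lists. Over all kept cells the size rule called 16.7% of all genes tested, 13.3% higher and 3.4% lower in KO, and the counts that follow stand beside those shares. Of 22 FGF ligand genes only 3 reached 10 CPM over all kept cells of a library, and all 3 passed between the genotypes. Fgf9 was lower in KO, at 1.98 CPM in KO, against 39.2 CPM in WT, and so was Fgf6, a ligand of muscle, at 2.77 CPM in KO, against 13.7 CPM in WT. Fgf9 and Fgf6 reached 10 CPM in WT alone and could pass only as lower. Fgf13, whose product stays inside the cell and does not act through these receptors, was higher at 58.5 CPM in KO, against 11.8 CPM in WT.

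Of 19 other receptors and co-receptors, 13 were tested over all kept cells, 4 passed as higher and 1 as lower in KO. The 4 higher were the heparan sulfate carriers Sdc1 at 65.1 CPM in KO, against 17.5 CPM in WT, Sdc2 at 202 in KO, against 73.5 in WT, Sdc3 at 19.0 in KO, against 4.23 in WT, and Sdc4 at 76.5 in KO, against 34.1 CPM in WT. The lower one was Flrt3, a membrane partner of FGF receptors, at 4.58 CPM in KO, against 30.7 CPM in WT. Sdc3 reached 10 CPM in KO alone and could pass only as higher, and Flrt3 in WT alone and only as lower. The median log2 ratio of the 13 was 0.43, beside 0.08 over all genes tested.

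Of 25 signal transducers from adaptor to kinase, 23 were tested and 1 passed, a smaller share than the 16.7% of all genes. It was Mapk3, the gene of ERK1, at 43.1 CPM in KO, against 19.8 CPM in WT. The median of the 23 was 0.03. Of 18 other feedback and target genes of the pathway, 17 were in the files, 10 were tested, and 6 passed, all higher in KO, with a median of 1.26. They were Fosl1 at 29.3 CPM in KO, against 0.527 CPM in WT, and Ier3 at 63.2 CPM in KO, against 2.39 CPM in WT. Both reached 10 CPM in KO alone and could pass only as higher, and the count includes them. Errfi1, a feedback inhibitor of the EGF receptor, was at 125 in KO, against 23.5 CPM in WT, Ccnd1, the gene of cyclin D1, at 231 in KO, against 58.4 CPM in WT, Phlda1 at 2.80-fold and Egr1 at 2.06-fold. Dusp6 lay on the same side of 1 as these genes, and Spry4 on the other side. With 6.89 CPM in WT, Dusp6 could pass only as higher, and Spry4, with 5.92 CPM in KO, only as lower. The sides of these calls are therefore not a separate result, and signals other than FGF also act on these genes.

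**Figure D4:**
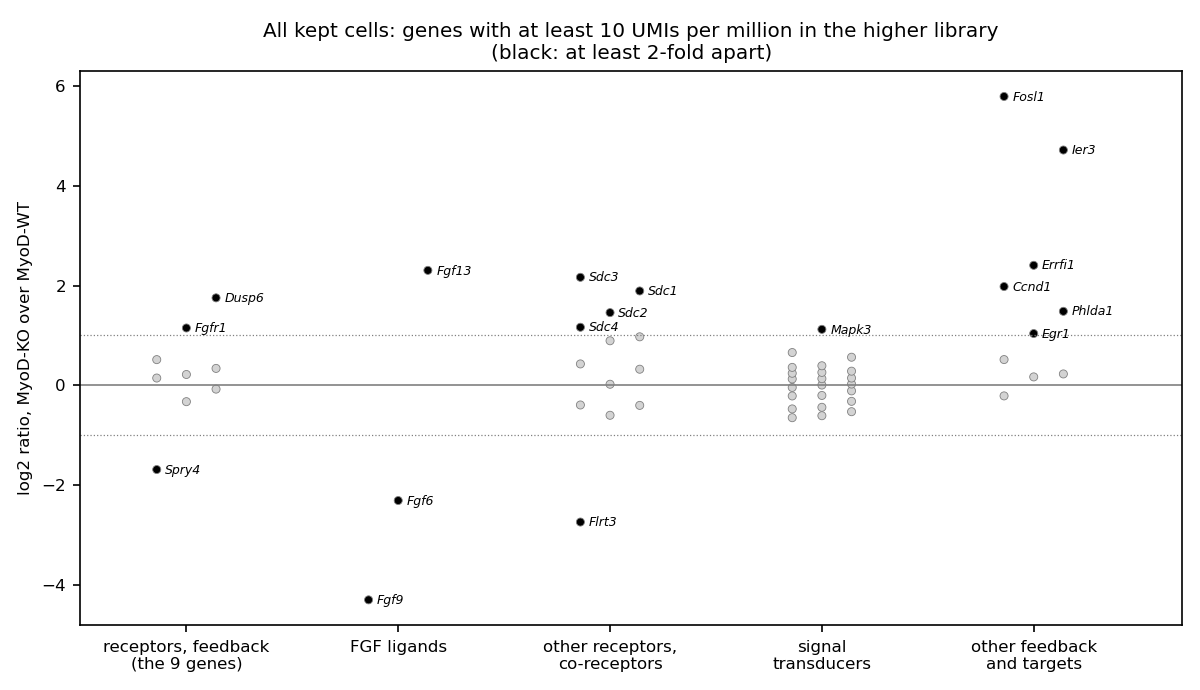
Log2 ratio over all kept cells, MyoD-KO over MyoD-WT, of the genes that reach 10 CPM in either library, in 5 groups of the pathway; each point is a gene, black and named where at least 2-fold apart. Of the feedback genes and targets outside the 9, 6 of 10 lie above the upper dotted line and none below the lower, and 1 of 23 signal transducers lies outside the lines. Fosl1 and Ier3 reach 10 CPM in KO alone and could pass only as higher.

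Between states, muscle-rich non-cycling cells were set against Pax7+ non-cycling cells, a step in which 11.7% of all genes tested passed as higher and 31.0% as lower in KO, and 13.3% as higher and 26.2% as lower in WT. Most of the ligands tested reached 10 CPM in the muscle-rich cells alone and could then pass only as higher, so their count is not given. Fgf6 was at 13.2 against 0.189 CPM in KO and 85.0 against 0.516 CPM in WT, Fgf21 at 47.1 against 0.330 CPM in KO and Fgf13 at 67.6 against 2.41 CPM in WT. At 10 CPM or more in both groups were Fgf13 in KO, at 139.7 against 43.4 CPM, and Fgf9 in WT, at 40.1 against 19.3 CPM, both named after their values were seen. The Pax7+ values of Fgf6 rest on 4 UMIs in KO and 3 UMIs in WT, so no fold is given. Of the other feedback genes 10 of 11 in KO and 9 of 10 in WT passed as lower, with none higher. Of these, Dusp5 and Fosl1 in KO and Dusp4, Ier3, Errfi1, Ccnd1 and Myc in WT reached 10 CPM in the Pax7+ cells alone. Ccnd1 was at 24.4 against 349 CPM in KO and 6.18 against 70.6 CPM in WT, and Errfi1 in WT was at 5.15 against 63.4 CPM.

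Of the other receptors and co-receptors, 5 passed as higher and 6 as lower of 12 in KO, and 5 as higher and 5 as lower of 12 in WT, beside 42.7% of all genes in either direction in KO and 39.5% in WT. Gpc3, a heparan sulfate carrier, was at 15.2 against 333 CPM in KO and 19.9 against 512 CPM in WT, and Sdc2 at 28.9 against 370 CPM in KO and 7.81 against 168 CPM in WT. Of 23 signal transducers, 1 passed as higher and 8 as lower in KO, and 4 as higher and 6 as lower in WT, shares near those of all genes. Hras, a RAS gene, was higher at 492 against 96.4 CPM in KO and 287 against 73.0 CPM in WT.

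In Myog+ non-cycling cells, of the other feedback genes tested, 8 of 12 passed as lower and 1 as higher in KO, beside 12.0% lower and 6.3% higher of all genes, and 7 of 10 as lower and 1 as higher in WT, beside 13.5% lower and 7.94% higher. The fibroblast marker sums given above, 199 against 733 CPM in KO and 29.3 against 212 CPM in WT, moved with these counts too, and their part in them was not tested. Ier3 was at 11.7 against 101 CPM in KO and 1.69 against 12.0 CPM in WT. Dusp5 in KO, at 1.44 against 10.8 CPM, and Ier3 in WT reached 10 CPM in the Pax7+ cells alone. Such genes could pass only as lower, and the counts of lower genes include them. Fgfrl1, an FGF receptor without a kinase, was higher in KO at 43.9 against 11.2 CPM, while Sdc2 in WT was lower at 17.8 against 168 CPM. Among Pax7+ cells, Ier3 was lower in cycling than in non-cycling cells of both libraries, at 47.9 against 101 CPM in KO and 0.941 against 12.0 CPM in WT, in the same direction as Dusp6.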

How the data were processed

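Single-cell RNA libraries of 1 MyoD-KO and 1 MyoD-WT clone were read as deposited. The deposited values are whole UMI counts per gene and barcode, and per the file headers Cell Ranger 7.2.0 wrote them. The submitters' processing notes list the build GRCm39 and the tool Seurat but not what each was used for, and the annotation release and strand setting are not given in the sources used here. Coordinates and gene overlaps come from GRCm38 and serve for sequences and names only.

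Kept cells had at least 1000 genes and at most 15% mitochondrial UMIs, and Scrublet, at an expected doublet rate of 0.06, left out 144 of 5782 such KO cells (2.49%) and 2 of 7318 WT cells (0.0273%). At that share the caller did not work in WT. Muscle-rich cells had at least 2% of UMIs in 37 sarcomere genes, Myog+ cells at least 100 CPM of Myog and Pax7+ cells at least 50 CPM of Pax7, in that order. Cycling cells had at least 3850 CPM of 94 S and G2M genes, a limit set by Otsu's method.

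Counts were summed per library and state. With 1 library per genotype there is no test: ratios carry 95% conditional Poisson intervals, levels exact Poisson intervals and shares Clopper-Pearson intervals, all for counting error only. A gene was called at 2-fold or more with at least 10 CPM in the higher group. The text names the 9 genes, Myod1, up to 4 called genes per pathway list between genotypes (2 between states) and the 3 genes nearest each of the 9 in pattern, without predicted, mitochondrial and ribosomal genes; Sdc4, Phlda1 and Egr1 were added after their values were seen. The genes, lists and gates were chosen with earlier results of these data known. On simulated counts of all 25906 genes, 100 of 100 genes made 3-fold higher and 100 of 100 made 3-fold lower were recovered over all cells, and 100 and 99 in Pax7+ non-cycling cells, with 0 unchanged genes called. These counts held counting error alone, with no difference between clones or libraries, and the 3-fold changes lay past the 2-fold limit. The result therefore checks the code only and says nothing of false calls between clones. Python 3.11.15, numpy 2.4.6, scipy 1.17.1, scanpy 1.11.5, pandas 2.3.3, matplotlib 3.10.9, R 4.3.3 and edgeR 4.0.16 (TMM factors) were used.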

Additional observations from a re-analysis of the deposited data

Results flagged for a closer look

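Spry4 had ratios on opposite sides of 1 in the 2 libraries when muscle-rich non-cycling cells were set against Pax7+ non-cycling cells. The log2 ratio was -0.30 in KO, at 4.84 against 5.94 CPM, and 1.70 in WT, at 23.5 against 7.22 CPM. The difference between the libraries was not tested, since each genotype has 1 library. The KO ratio of 0.814 had an interval of 0.652–1.02, which holds 1, and with TMM scaling the log2 values of Spry4 were 0.28 in KO and 2.25 in WT, so the opposite sign rests on the scaling while the WT value was the higher under both.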

How the results depend on the processing

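No paired analysis was possible because each genotype has 1 library. Single values were recomputed under up to 16 of the 18 alternatives, leaving aside those that change the size rule itself. Under these, 22 of the 32 called values of the 9 genes never lost their call, and no called value changed sign. The KO over WT log2 ratio of Spry4 ranged from -1.87 to -1.64 over all kept cells. Over all 18 alternatives, the count of called genes moved by over 1.5 times in 21 of 212 recounts. For Pax7+ cycling over Pax7+ non-cycling cells in KO, where 0 were called, it was 1 with a total that leaves out mitochondrial, ribosomal and sarcomere genes, 1 with at least 2000 genes and at most 10% mitochondrial UMIs, 1 without cells that hold both Pax7 and Myog UMIs, 1 with the cycling limit lowered 1.5 times, 1 with cycling read from Mki67 and Top2a, and 3 at 1.5-fold. For the same comparison in WT, where 2 were called, it was 1 with Mki67 and Top2a, 4 after thinning to 5000 UMIs and 4 at 1.5-fold. For Myog+ non-cycling over Pax7+ non-cycling cells in KO, where 2 were called, it was 1 with TMM scaling, 1 with the stricter cell filter, 1 with muscle-rich cells set at 4%, 1 with the cycling limit raised 1.5 times, 6 without cells that hold both Pax7 and Myog UMIs, 4 after thinning and 6 at 1.5-fold. In WT, where 3 were called, it was 1 without cells that hold fibroblast markers. Between genotypes it was 1 with Mki67 and Top2a and 2 at 1.5-fold in Pax7+ non-cycling cells, where 0 were called, 4 at 1.5-fold in Myog+ cycling cells, where 2 were called, and 4 at 1.5-fold in muscle-rich non-cycling cells, where 2 were called. The cause of these moves was not tested.

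Under TMM, the log2 ratio of KO over WT over all kept cells had a median of -0.10 across genes, against 0.08 by totals, and Etv4 was at -0.04, against 0.15. Leaving out cells with the 7 fibroblast markers kept 1387 KO and 5659 WT cells and 8 KO Pax7+ non-cycling cells, so comparisons with those 8 have no value. Between genotypes, calls were lost for Fgfr1 over all kept cells (TMM scaling, fibroblast markers) and in Pax7+ cycling cells (TMM scaling), Dusp6 over all kept cells (fibroblast markers) and Spry4 in Pax7+ cycling cells (both Pax7 and Myog UMIs, where it is under 10 CPM in both libraries). Against Pax7+ non-cycling cells, calls were lost in WT for Fgfr1 in Pax7+ cycling cells (Mki67 and Top2a, fibroblast markers), Dusp6 in Myog+ cells (cycling limit raised, Mki67 and Top2a, fibroblast markers), Etv4 in Myog+ and muscle-rich cells (fibroblast markers) and Spry2 in muscle-rich cells (TMM scaling, muscle-rich at 1%, fibroblast markers), and in KO for Spry1 in Myog+ cells, under 4 settings. Depth limits the WT Pax7+ non-cycling values, where Spry4 rests on 42 UMIs, and Etv4 in Myog+ non-cycling cells, with 39 UMIs in KO and 29 UMIs in WT.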

Other observations

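Cells were also split by their own Myod1 level, a split chosen after the data were seen, and no cause is read from it. In WT Pax7+ cycling cells Spry4 had 8.72 CPM in the 981 cells under 50 CPM of Myod1, 10.2 CPM in the 1696 cells from 50 to 150, 13.1 CPM in the 1022 cells from 150 to 300 and 17.4 CPM in the 218 cells at 300 or more. In the same KO state Spry4 had 3.84, 3.91 and 4.78 CPM in the lower 3 bins and 0 UMIs in the 7 cells at 300 or more, which allows up to 15.8 CPM. WT Myog+ cycling cells had 16.9, 34.2, 34.9 and 46.9 CPM of Spry4 in the 4 bins from low to high Myod1. Mean Myog also differed along the WT Pax7+ cycling bins, with 11.7 CPM in the lowest and 29.4 CPM in the highest, and Dusp6 went the other way, with 8.60 CPM in the lowest and 5.51 CPM in the highest bin.

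Spry1 and Spry2 differed in the Myog+ cells split by Pax7, a split that pools cycling and non-cycling cells. In KO, Myog+ cells with at least 50 CPM of Pax7 had 16.4 CPM of Spry1 and 41.3 CPM of Spry2, and those without a Pax7 UMI had 9.51 CPM of Spry1 and 23.6 CPM of Spry2. In WT, Spry1 had 22.1 CPM in Myog+ cells with Pax7 and 27.8 CPM in those without, the other direction from KO, while Spry2 had 44.5 CPM in those with Pax7 and 34.3 CPM in those without.

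Outside the 3 named groups, the 341 KO non-cycling cells had 274 CPM of Fgfr1, 99.4 CPM of Dusp6 and 31.7 CPM of Fgfr4, and the 91 WT cells had 140 CPM of Fgfr1, 33.0 CPM of Dusp6 and 85.8 CPM of Fgfr4. Of the 341 KO cells 192 hold at least 100 CPM of Dcn, Lum, Twist2 and Crabp1 together, against 5 of the 91 WT cells.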
